A study of Mus musculus with 6 samples.

Results

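The genes described here are 9 members of the Sox family of transcription factors: Sox1, Sox2, Sox4, Sox5, Sox6, Sox8, Sox9, Sox10 and Sox11. Chromatin accessibility was measured at them by ATAC-seq, which cuts and tags open DNA with a transposase, in nuclei sorted from the ventral tegmental area (VTA) of mice. The labels' protocol names a general DNA library kit and describes no transposition, so that step rests on the assay's name. A region was taken when it overlapped the RefSeq bounds of a member gene extended by 50 kb to each side. This gave 187 of the 193148 regions. Of these, 23 lay at the progenitor genes Sox1 and Sox2, 44 at the glial genes Sox8, Sox9 and Sox10, and 120 at the neuronal genes Sox4, Sox5, Sox6 and Sox11. Regions were chosen by position. The genes and their classes, however, were selected on knowledge of how read counts differed between genotypes in these data. The changes between genotypes given below, with their calls and adjusted p-values, therefore describe the members and are not independent evidence about them.

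The control group comprised 3 libraries with the genotype label Ogtflox-/Y and the knockdown group 3 libraries with the label Ogtflox+/Y. Ogt, an X-linked gene, encodes the transferase that adds O-GlcNAc to proteins of the nucleus and cytoplasm. Both groups received the same pair of adeno-associated viruses in the VTA. AAV-TH-Cre carries Cre recombinase and is named for tyrosine hydroxylase (Th), and AAV-DIO-H2B-EGFP carries a Cre-dependent fluorescent histone. Control nuclei thus also came from cells labelled through Cre, and EGFP+ nuclei were sorted in both groups. The labels give neither age nor strain, nor the number of animals behind a library. Where a p-value is given, it reflects library-to-library spread, which may be technical. The title of knockdown replicate 1 names the control genotype, against its genotype label. Results are given by the genotype label, and those that rest on this library are also given without it.

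Library totals ranged from 34384319 to 66853563 reads in control and from 41025728 to 42678585 reads in knockdown. Levels are given in CPM, relative to the reads in regions and scaled by TMM, so that 3 reads equal 0.117 to 0.237 CPM. This floor covers counting error only. Summed accessibility of Ogt and 5 kb around it was 25.1, 26.1 and 20.8 CPM in control and 37.2, 36.3 and 40.3 CPM in knockdown, so the groups did not overlap there. Accessibility does not show whether the floxed segment was removed. Among 10 dopaminergic markers, summed in the same way, none was at 0 in any library. Their sum was 810 to 1236 CPM in control, of which Th held 341 to 777 CPM. The dopamine transporter gene Slc6a3 ranged from 4.78 to 6.02 CPM over all 6 libraries. Markers of other cell types were also accessible in every library, with lists summing to 257 to 297 CPM for oligodendrocytes and 295 to 325 CPM for astrocytes in control. Mbp alone held 150 to 177 CPM of the oligodendrocyte sum. The lists differ in genes and regions, so their sums do not give shares of nuclei. In these sorted pools, fewer nuclei of a type and less open chromatin per nucleus cannot be told apart.

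Sox proteins bind DNA through an HMG box and bend it, usually together with partner factors. Sox1 and Sox2 keep neural progenitors undifferentiated, and Sox2 stays expressed in adult astrocytes. Sox9 drives the switch of progenitors to glia, Sox10 drives oligodendrocyte differentiation and myelin genes, and Sox8 overlaps with both in function. Sox4 and Sox11 act in newly formed neurons. Sox5 and Sox6 lack an activation domain of their own and shape neuronal subtypes, and Sox6 marks a subset of midbrain dopaminergic neurons.

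The 250 bases before the RefSeq start (GRCm38.p6, the assembly called mm10) are shown for the 5 members with an accessible region over a listed start, since these are the promoters the start-site values below refer to. Each is written 5′ to 3′ on the strand of the gene, with CG dinucleotides in capitals. They lie at chr8:12395269-12395518 (Sox1, plus strand), chr3:34649745-34649994 (Sox2, plus strand), chr17:25570687-25570936 (Sox8, minus strand), chr13:28953700-28953949 (Sox4, minus strand) and chr12:27342719-27342968 (Sox11, minus strand).
Sox1: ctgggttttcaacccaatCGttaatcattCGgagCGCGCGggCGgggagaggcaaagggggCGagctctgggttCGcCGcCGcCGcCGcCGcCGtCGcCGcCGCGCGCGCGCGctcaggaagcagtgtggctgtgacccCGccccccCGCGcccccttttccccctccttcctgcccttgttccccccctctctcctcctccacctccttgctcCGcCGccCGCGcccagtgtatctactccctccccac
Sox2: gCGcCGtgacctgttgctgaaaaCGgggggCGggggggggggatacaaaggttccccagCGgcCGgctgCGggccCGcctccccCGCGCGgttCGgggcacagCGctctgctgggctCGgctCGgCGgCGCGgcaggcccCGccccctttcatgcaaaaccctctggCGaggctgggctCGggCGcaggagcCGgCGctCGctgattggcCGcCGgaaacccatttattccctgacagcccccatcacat
Sox8: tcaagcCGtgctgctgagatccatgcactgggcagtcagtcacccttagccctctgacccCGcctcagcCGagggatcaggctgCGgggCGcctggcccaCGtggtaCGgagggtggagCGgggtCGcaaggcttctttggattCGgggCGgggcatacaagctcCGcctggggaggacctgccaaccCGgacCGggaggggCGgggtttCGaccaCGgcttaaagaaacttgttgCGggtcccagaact
Sox4: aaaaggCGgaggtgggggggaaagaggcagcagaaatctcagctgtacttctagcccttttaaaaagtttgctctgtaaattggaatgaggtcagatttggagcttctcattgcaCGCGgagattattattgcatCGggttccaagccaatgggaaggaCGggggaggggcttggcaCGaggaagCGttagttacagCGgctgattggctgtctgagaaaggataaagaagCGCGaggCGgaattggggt
Sox11: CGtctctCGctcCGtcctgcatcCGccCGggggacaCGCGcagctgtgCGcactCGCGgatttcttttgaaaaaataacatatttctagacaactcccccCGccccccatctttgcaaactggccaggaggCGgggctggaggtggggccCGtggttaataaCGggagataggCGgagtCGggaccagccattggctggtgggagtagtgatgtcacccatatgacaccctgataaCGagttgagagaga
The progenitor promoters held the most CG dinucleotides of these, 29 in Sox1 and 27 in Sox2. Sox8 held 18, Sox11 held 17 and Sox4 held 11. The median over all 32851 RefSeq promoters of that length was 6, and 6.78% of them held at least as many as Sox1, 8.56% as many as Sox2 and 35.6% as many as Sox4. Letters of the Sox core motif were searched on both strands; ACAATG and ACAAAG share their first letters but no match can be both. ACAATG occurred in 10.7% of all promoters and ACAAAG in 16.5%. Among the 5 printed, ACAAAG occurred in Sox2, at position -206 from the start, and ACAATG in none. The STAT letters TTCNNNGAA (7.02% of all promoters) and the CRE letters TGACGTCA (1.55%) were found in none of the 5. Of the other members, Sox5 and Sox6 have listed starts that no region overlapped, and Sox9 and Sox10 were not matched in the promoter table.

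Across the Sox loci, regions called higher in knockdown outnumbered those called lower, with gains at the progenitor and glial genes, Sox4 and Sox6 and losses mostly at Sox5. Of 182 regions tested, 54 were called higher and 16 lower by edgeR's quasi-likelihood test with Benjamini-Hochberg adjustment over all regions. Over all 191693 regions tested, 28.1% were called, 15.4% higher and 12.7% lower. The 5 regions not tested, 2 at Sox5 and 3 at Sox6, had too few reads. Sox1 and Sox2 had 13 higher and 0 lower of 23 regions, and the glial genes 19 higher and 1 lower of 44. The neuronal genes had 22 higher and 15 lower of 115. Median log2 fold changes were 0.74 for the progenitor class, 0.43 for the glial class and -0.01 for the neuronal class, the last of which turned to 0.02 under loess scaling. The median over all regions was -0.01. These class values were not tested against each other.

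The split between gains and losses moved with the scaling. Scaling by library totals gave 25 higher and 32 lower Sox regions, while it shifted the median of all regions to -0.27. Scaling by reads in regions gave 41 higher and 19 lower, with that median at -0.12. The progenitor and glial medians were above 0 under each scaling tried. Without knockdown replicate 1, 28 Sox regions were called higher and 11 lower, against 29 higher without control replicate 2 and 31 without control replicate 3. Losses fell to 8 without control replicate 1 and to 10 without knockdown replicate 3. Calls over all regions also fell, from 29579 higher and 24271 lower to 24080 and 17602 without knockdown replicate 1. Without control replicate 2 they fell to 19100 and 14676. Grouping by title instead of genotype label, 4 control against 2 knockdown libraries, gave 0 calls among Sox regions in edgeR, with 14 at an unadjusted p under 0.05. It gave 0 calls among all regions as well, with 23047 at that unadjusted p.

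**Figure D1:**
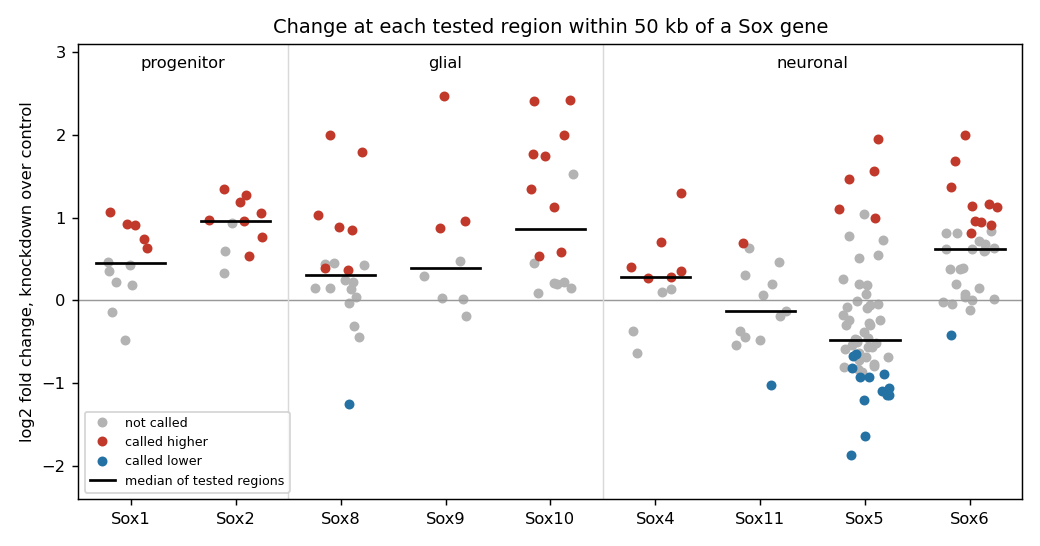
Log2 fold change (knockdown over control) of each of the 182 tested regions within 50 kb of a Sox gene, under TMM scaling, with red for regions called higher, blue for regions called lower and a bar at each gene's median. The Sox2 median stood at 0.96 and the Sox5 median at -0.48, and 13 of the 16 losses lay at Sox5.

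Sox2 rose over most of its regions. Its 11 regions summed to 31.4, 34.8 and 34.5 CPM in control and 83.0, 50.1 and 64.4 CPM in knockdown. Every knockdown library lay above every control library, with replicate 2 the lowest of the knockdown group. The log2 fold change was 0.97 ± 0.11 (SE; edgeR adjusted p over all genes 1.8e-09). In the same fit of 50 kb sums over all genes, 44.0% were called, 37.3% higher and 6.79% lower, with a median of 0.14. All 11 regions had a positive log2 fold change, 8 were called higher, and 10 had no overlap between the groups, against 21.0% of all regions with the knockdown libraries entirely above.

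The region over the Sox2 start, chr3:34649728-34650128, covered all 250 bases of the printed promoter. It held 5.16, 5.42 and 5.77 CPM in control and 16.5, 8.71 and 14.3 CPM in knockdown. The groups did not overlap, and the fold change was 2.42 on the linear scale (log2 1.27 ± 0.19, SE; adjusted p 0.00018). The largest rise of the locus came 7047 bp before the gene, at chr3:34642548-34642948 (log2 1.35). Its control values of 3.95, 3.63 and 4.49 CPM compared with 13.0, 5.94 and 11.7 CPM in knockdown. The most accessible region in control, chr3:34639187-34639587, rose less, from 6.58 ± 0.057 to 9.59 ± 2.23 CPM (SD, n = 3 each). Its call ended without knockdown replicate 1 (log2 0.36, adjusted p 0.15) and without any control library, as well as under library totals (log2 0.27, adjusted p 0.26) and reads in regions (adjusted p 0.070). Sox2 lies inside the long non-coding RNA gene Sox2ot, and the values do not tell the 2 genes apart.

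Sox1, the other progenitor gene, rose in knockdown replicates 1 and 3. Its 12 regions summed to 30.4, 33.6 and 32.5 CPM in control and 63.3, 35.2 and 53.2 CPM in knockdown. Knockdown replicate 2 stood 1.09 times over the control mean, against 1.97 and 1.65 times in replicates 1 and 3. The log2 fold change was 0.65 ± 0.12 (SE; adjusted p 2.4e-05), and it was 0.47 without knockdown replicate 1. Of its regions, 5 were called higher and 0 lower, with a median of 0.45. The start region chr8:12395369-12395769 overlapped 150 of the 250 printed bases and was also the most accessible of the locus in control. It held 7.59, 7.88 and 7.90 CPM in control and 18.0, 8.79 and 16.9 CPM in knockdown (log2 0.91 ± 0.19, SE; adjusted p 0.0025). Replicate 2 was again close to control, yet above it. A region 33023 bp from the gene, chr8:12432578-12432978, showed the largest rise (log2 1.07), which lost its call without knockdown replicate 1 (log2 0.62, adjusted p 0.24), without control replicates 2 or 3, or without knockdown replicate 3. It was not called by DESeq2 (adjusted p 0.085) or under library totals (adjusted p 0.091) either. For the 2 genes together, 6 regions were called higher without knockdown replicate 1, 6 without control replicate 2 and 7 without control replicate 3.

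**Figure D2:**
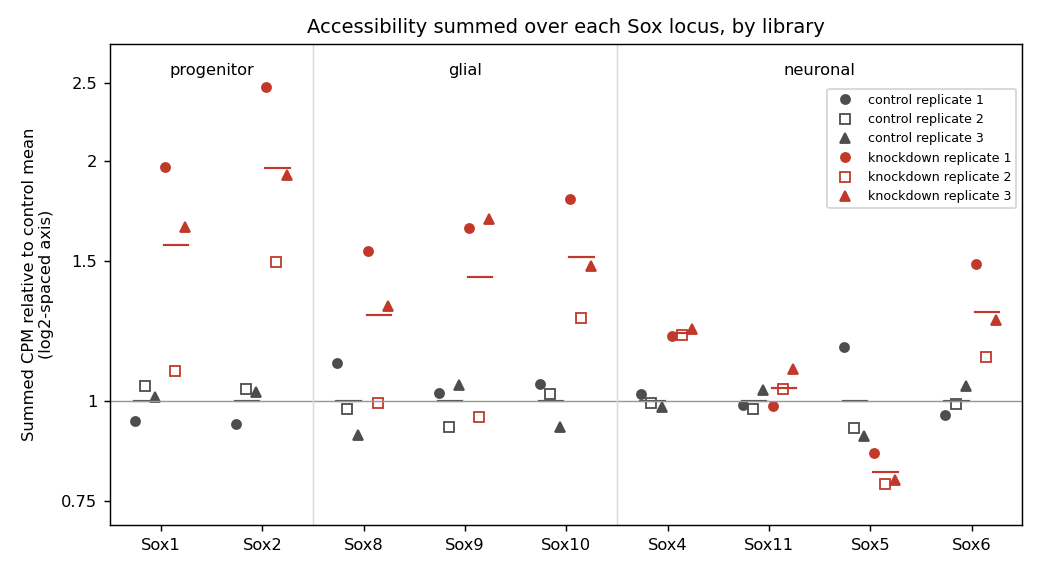
Summed CPM of all regions within 50 kb of each Sox gene in each library, relative to the control mean of that gene on a log2-spaced axis, with bars at group means. Knockdown replicate 2 (open red squares) lay nearest to control at the progenitor and glial genes, at 1.49 times for Sox2 and 1.09 times for Sox1.

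Among the glial genes, Sox10 showed the most gains. Its 16 regions summed to 93.1, 90.4 and 82.3 CPM in control and 159, 112 and 131 CPM in knockdown. The groups did not overlap, and the log2 fold change was 0.60 ± 0.08 (SE; adjusted p 2.8e-07). Of these regions 9 were called higher and 0 lower, and all 16 had a positive log2 fold change. The region at a bound of the gene itself, chr15:79164391-79164791, was singled out because no start was listed. It held 0.835, 0.780 and 0.662 CPM in control and 4.76, 1.19 and 1.79 CPM in knockdown (log2 1.76 ± 0.41, SE; adjusted p 0.0044). These levels rest on 11 to 63 reads per library, and without knockdown replicate 1 the log2 fold change was 1.01 (adjusted p 0.058).

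Far from the gene, the largest Sox10 rise lay 48286 bp away at chr15:79212776-79213176. Its values were 0.380, 1.29 and 0.568 CPM in control and 9.97, 1.58 and 1.59 CPM in knockdown. The rise rested on knockdown replicate 1, without which it was 0.99 (adjusted p 0.092), and DESeq2 did not call it (adjusted p 0.058). The Sox10 region with the smallest adjusted p, a choice made after values were seen, lay 46558 bp away at an end of Micall1, chr15:79107955-79108355. It rose evenly, from 4.25, 4.10 and 4.59 CPM to 9.97, 10.6 and 12.3 CPM (log2 1.35 ± 0.16, SE), and remained called when any library was left out. The most accessible region within the Sox10 window, chr15:79141062-79141462, stood at the end of the neighbouring gene Polr2f, which encodes an RNA polymerase subunit. It was not called (26.0 ± 5.01 against 29.7 ± 1.48 CPM, SD, n = 3 each). Control replicate 1 held 31.7 CPM there, beside 24.1 and 22.2 CPM in control replicates 2 and 3 and 28.0 to 30.7 CPM in knockdown. In all, 4 Sox10 regions and 1 Sox8 region lay within 1 kb of a bound of another protein-coding gene. Inside such a gene lay 7 of the 16 Sox10 regions and 8 of the 20 Sox8 regions, some of them also counted above. Regions at ends of Polr2f and Micall1 held 26.0 and 21.6 CPM of the Sox10 control mean sum of 88.6 CPM. Most of the Sox10 sum thus lay in or at neighbouring genes. Without regions at ends of other genes, 7 Sox10 regions were called higher and 0 lower. Of these, chr15:79110046-79110446 still lay inside Micall1 and chr15:79145487-79145887 inside Polr2f.

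Sox9, the astrocyte and gliogenic factor, had few regions and a split among the knockdown libraries. Its 8 regions summed to 34.2, 31.0 and 35.0 CPM in control and 55.0, 31.9 and 56.5 CPM in knockdown. Replicates 1 and 3 lay above control, and replicate 2 within the control range. The log2 fold change was 0.52 ± 0.12 (SE; adjusted p 0.0005), with 3 regions called higher and 0 lower. The DESeq2 test did not call this sum (adjusted p 0.10), and within 10 kb of the gene the log2 fold change was 0.20 (adjusted p 0.22). The most accessible region lay at the gene bound, chr11:112781939-112782339, with 9.57, 8.31 and 9.65 CPM in control and 15.7, 8.31 and 14.0 CPM in knockdown. It was not called (log2 0.48, adjusted p 0.057), but it was called without knockdown replicate 2 (log2 0.69, adjusted p 0.0011). The gains lay outside the gene. At chr11:112817782-112818182, 30025 bp away, accessibility rose from 0.304, 0.546 and 0.331 CPM to 2.42, 1.03 and 3.39 CPM, with no overlap (log2 2.47 ± 0.42, SE). A stronger region 23366 bp away, chr11:112811123-112811523, chosen after its values were seen, rose from 7.14, 7.73 and 8.13 CPM to 17.2, 8.23 and 16.9 CPM. There, replicate 2 exceeded the highest control by less than 1 SD of control.

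Sox8, expressed in oligodendrocytes, changed least of the 3 glial genes. Its 20 regions summed to 132, 116 and 107 CPM in control and 182, 118 and 156 CPM in knockdown, with replicate 2 inside the control range. The log2 fold change was 0.36 ± 0.09 (SE; adjusted p 0.0011), a call lost with DESeq2 (adjusted p 0.14), with scaling by library totals (0.50) and with loess scaling (0.11). Of its regions, 7 were called higher and 1 lower. The start region, chr17:25570605-25571005, held 15.9, 14.3 and 14.2 CPM in control and 24.2, 15.5 and 18.5 CPM in knockdown. Its log2 fold change of 0.40 (adjusted p 0.042) lost its call under DESeq2 and each other scaling, and without any library but knockdown replicate 2. It was 0.22 (adjusted p 0.23) without knockdown replicate 1. The most accessible region, chr17:25578897-25579566, lay at an end of Lmf1, the gene of a lipase maturation factor, and rose from 39.4 ± 5.28 to 50.4 ± 5.39 CPM (SD, n = 3 each). That call ended without control replicates 2 or 3 (log2 0.35 and 0.27) or knockdown replicate 3 (log2 0.35). It was also lost under library totals (log2 0.10, adjusted p 0.57) and loess curves (log2 0.055, adjusted p 0.63). The largest rise, at chr17:25518147-25518547, came from 1 library: 1.37, 1.60 and 1.37 CPM in control stood against 13.7, 1.58 and 2.26 CPM in knockdown. Without knockdown replicate 1 its log2 fold change fell from 2.00 to 0.42 (adjusted p 0.34), and DESeq2 did not call it (adjusted p 0.12). The only loss at a glial gene, chr17:25612509-25612909, lay inside Lmf1 (2.51 ± 1.18 against 1.00 ± 0.783 CPM, SD, n = 3 each). It was lost without control replicate 1 (log2 -0.86) and without knockdown replicates 2 (log2 -0.91) or 3 (log2 -1.04). Over the 3 glial genes, 10 regions were called higher without knockdown replicate 1.

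The libraries thus differed in how far they moved. In 38 of the 54 higher Sox regions, knockdown replicate 2 was the lowest of its group, which was so for 49.4% of higher regions overall. Replicate 1 was the highest in 38 of 54, against 43.5% overall. By class this was 13 of 13 progenitor, 12 of 19 glial and 13 of 22 neuronal higher regions. Replicate 2 lay within or below the control range in 14 of the 54, of which 8 were glial, against 8.41% of all higher regions. Summed over each class, the progenitor genes stood at 2.22, 1.30 and 1.79 times the control mean in knockdown replicates 1 to 3. The glial genes stood at 1.65, 1.09 and 1.43 times, and the neuronal genes at 1.08, 1.02 and 1.06 times. Of the 44 glial regions, 15 lay inside another protein-coding gene, against 0 at the progenitor and neuronal genes. The glial sum therefore includes accessibility of neighbouring genes.

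Astrocyte markers rose beside these values, and the part of any marker in the Sox results was not tested. Microglial markers, of which none was called higher, and GABAergic markers, of which all 3 were called higher, are given further below. Marker genes were summed with 5 kb to each side, a sum for which 45.6% of all genes were called, 36.0% higher and 9.56% lower. Of 8 astrocyte markers, 7 were called higher and 0 lower, with a median log2 fold change of 0.40, and their sum was 295 to 325 CPM in control and 332 to 433 CPM in knockdown. Aqp4, the astrocyte water channel, held 5.01, 3.51 and 4.82 CPM in control and 22.1, 7.68 and 19.5 CPM in knockdown, with replicate 2 again the lowest of its group. Oligodendrocyte markers had 3 of 8 called higher and 0 lower, close to the share over all genes, with a median of 0.31. They summed to 257 to 297 CPM in control and 244 to 336 CPM in knockdown. Knockdown replicates 1 to 3 stood at 1.22, 0.889 and 0.954 times the control mean of that list. Mag, a myelin protein gene, held 1.44, 2.26 and 2.08 CPM in control and 15.4, 2.14 and 2.06 CPM in knockdown, so that replicate 1 alone was high. Gpr17, of immature oligodendrocytes, was the only call among 5 precursor markers, at 0.607, 0.741 and 0.615 CPM in control and 5.89, 0.554 and 0.996 CPM in knockdown. Of 5 neural progenitor markers, 1 was called higher, Vim, and 0 lower. The median log2 fold change was 0.11 for the precursor markers and -0.19 for the neural progenitor markers. No marker that had regions was at 0 in any library.

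**Figure D3:**
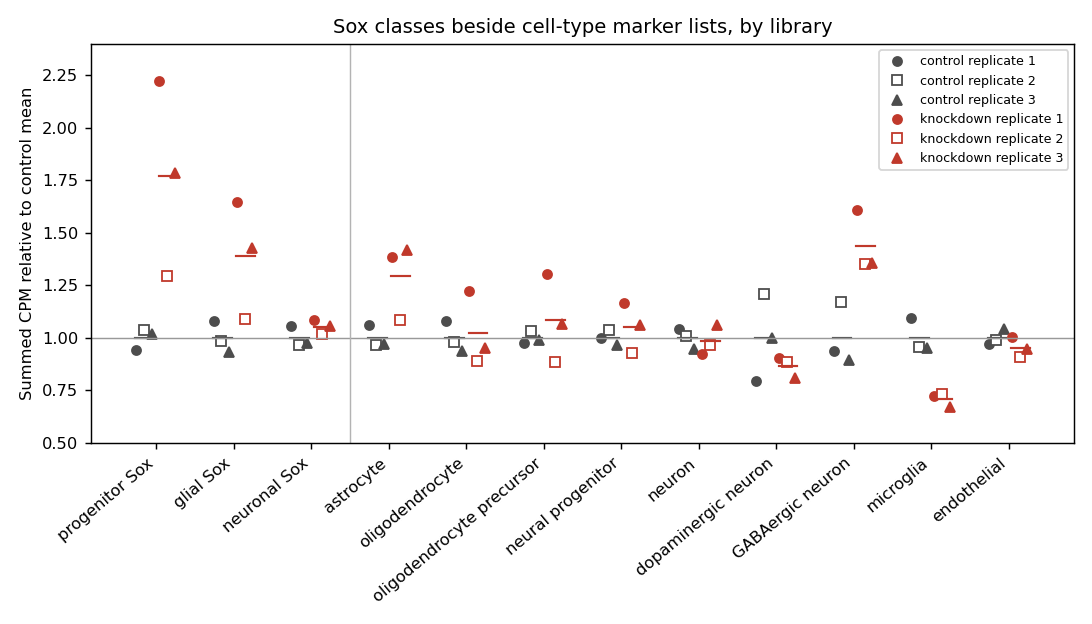
Summed CPM of the 3 Sox classes (left of the line) and of the cell-type marker lists in each library, relative to the control mean, with bars at group means. The progenitor and glial Sox sums and the astrocyte sum were high in knockdown replicates 1 and 3 and nearer to control in replicate 2, at 1.30, 1.09 and 1.09 times. The GABAergic sum was also higher, at 1.61, 1.35 and 1.36 times in replicates 1 to 3. Replicate 2 was the lowest knockdown library for the oligodendrocyte, precursor, neural progenitor and endothelial sums too, at 0.889, 0.886, 0.926 and 0.907 times. The glial Sox sum includes regions inside other protein-coding genes.

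The neuronal genes went different ways. Sox4, a factor of young neurons, rose slightly but evenly: its 10 regions summed to 126, 123 and 122 CPM in control and 149, 150 and 152 CPM in knockdown. The groups did not overlap, and the log2 fold change was 0.28 ± 0.07 (SE; adjusted p 0.0012). The size depended on scaling, with 0.02 (adjusted p 0.91) under library totals and 0.12 (adjusted p 0.053) under loess curves. Of its regions, 6 were called higher and 0 lower. The higher count was 2 with DESeq2, 3 under reads in regions, 1 under loess curves and 0 under library totals. As libraries were left out in turn, it was 1 to 4. The start region chr13:28953602-28954002 held 19.4, 20.4 and 19.5 CPM in control and 24.5, 23.9 and 23.8 CPM in knockdown. Despite the narrow groups its call (log2 0.28, adjusted p 0.044) ended when any library was left out, with adjusted p from 0.055 to 0.12. DESeq2 (adjusted p 0.096) and each other scaling ended it too, with log2 fold changes of 0.019 under library totals, 0.17 under reads in regions and 0.078 under loess curves. Within the gene, chr13:28952147-28953162, the most accessible region, rose from 26.5 ± 0.901 to 33.9 ± 2.91 CPM (SD, n = 3 each). It lost its call without control replicate 3 (log2 0.34, adjusted p 0.058) or knockdown replicate 3 (log2 0.30, adjusted p 0.058). Under library totals its log2 fold change was 0.096 (adjusted p 0.59) and under loess curves 0.10 (adjusted p 0.41). The largest Sox4 rise, at chr13:28930267-28930667 (log2 1.29), rested on 5 to 20 reads per library. It lost its call without any control library and without knockdown replicate 1 (log2 0.94), and also with DESeq2, library totals and loess curves (adjusted p 0.11, 0.068 and 0.064).

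Sox11, the close relative of Sox4, showed no call in its sum. Its 13 regions summed to 92.1, 91.1 and 96.2 CPM in control and 91.9, 96.5 and 102 CPM in knockdown (log2 0.06 ± 0.07, SE; adjusted p 0.54), and the groups overlapped. The sign turned under library totals, reads in regions and loess curves. Its start region, chr12:27342623-27343220, was the most accessible member region in control per kb of region. It held 45.8, 36.6 and 43.1 CPM in control and 40.3, 43.5 and 47.1 CPM in knockdown, without separation of the groups (log2 0.07, adjusted p 0.67). A loss stood 14278 bp away at chr12:27356996-27357396, where 4.25, 4.76 and 5.30 CPM in control compared with 2.57, 2.53 and 1.99 CPM in knockdown. That region fell by 1.02 on the log2 scale (SE 0.22; adjusted p 0.0023), with all knockdown libraries below all controls. The only gain, chr12:27294252-27294652 (log2 0.69), was called no longer without any library but knockdown replicate 2, nor with DESeq2 (adjusted p 0.065), library totals (log2 0.43, adjusted p 0.17) or reads in regions (adjusted p 0.062).

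**Figure D4:**
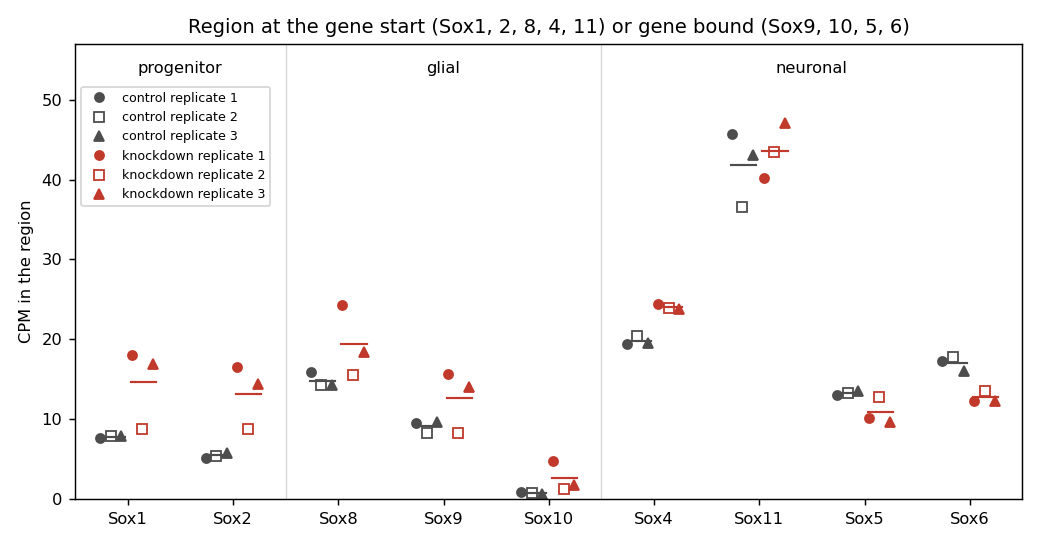
CPM in each library of the region over the listed start (Sox1, Sox2, Sox8, Sox4, Sox11) or, where none overlapped, of the most accessible region at a bound of the gene (Sox9, Sox10, Sox5, Sox6), with bars at group means. Knockdown exceeded control at Sox2 without overlap, from 5.45 to 13.2 CPM on average, and lay below it at Sox6, from 17.0 to 12.7 CPM.

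Per kb of region, the control start regions ranked Sox11 (69.9 CPM), Sox4 (49.3 CPM), Sox8 (36.9 CPM), Sox1 (19.4 CPM) and Sox2 (13.6 CPM), and the control libraries of neighbours in this order did not overlap. In knockdown the order was Sox11 (72.9 CPM), Sox4 (60.0 CPM), Sox8 (48.4 CPM), Sox1 (36.4 CPM) and Sox2 (32.9 CPM), where the libraries of neighbours from Sox4 downwards overlapped.

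Sox5 was the member with the losses. Its bounds span 953.9 kb, and its 61 regions summed to 169, 134 and 131 CPM in control and 125, 114 and 115 CPM in knockdown. Every knockdown library lay below every control library, and the sum fell by 0.29 on the log2 scale (SE 0.08; adjusted p 0.0028). Control replicate 1 was the highest, and without it the log2 fold change was -0.16 (adjusted p 0.079). Without knockdown replicate 3 it was -0.25 (adjusted p 0.051). Of 59 regions tested, 13 were called lower and 5 higher, with a median of -0.48, and 21 had the knockdown libraries entirely below control, against 21.2% of all regions.

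Losses and gains took different places along Sox5, read from the 5′ bound on the minus strand. On the 5′ side of the gene's midpoint, flank included, lay 11 of the 13 losses and 0 of the 5 gains among 29 tested regions. The 3′ side held 2 losses and 5 gains among 30. This split at the midpoint was chosen after the values were seen. The largest loss lay 6.97 kb inside the 5′ bound, at chr6:144775122-144775522, with 7.06, 4.60 and 3.26 CPM in control and 0.680, 0.950 and 2.26 CPM in knockdown (log2 -1.87 ± 0.35, SE). The most accessible region, at the bound itself (chr6:144781639-144782658), was not called, at 13.2 ± 0.273 against 10.8 ± 1.68 CPM (SD, n = 3 each; adjusted p 0.11). It was called lower without knockdown replicate 2 (log2 -0.44, adjusted p 0.026) and under each other scaling. Near the single listed start, 1653 bp from it and 833.3 kb from the 5′ bound, the region chr6:143948759-143949159 fell from 4.25, 4.41 and 3.93 CPM to 1.59, 1.11 and 1.33 CPM. That loss, chosen after its values were seen, was even across libraries (log2 -1.64 ± 0.24, SE) and remained called when any library was left out. The largest gain, chr6:144297101-144297501, rose from 0.250 ± 0.160 to 1.09 ± 0.400 CPM (SD, n = 3 each) and rested on 1 to 20 reads per library.

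Sox6, which acts with Sox5 in many tissues, rose over most of its length and fell at its 5′ bound. Its 36 regions, over bounds of 569.9 kb, summed to 61.5, 63.5 and 66.9 CPM in control and 95.0, 72.6 and 80.9 CPM in knockdown. The groups did not overlap, with a log2 fold change of 0.37 ± 0.08 (SE; adjusted p 0.00035), which was 0.11 (adjusted p 0.45) under library totals. Of 33 regions tested, 10 were called higher and 1 lower. Gains were spread over the gene, with 4 of 15 regions on the 5′ side of its midpoint and 6 of 18 on the 3′ side.

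The single Sox6 loss was its most accessible region, chr7:116040144-116040544, at the 5′ bound and 1400 bp from the nearest listed start. It held 17.2, 17.8 and 16.1 CPM in control and 12.3, 13.5 and 12.3 CPM in knockdown, with no overlap, and fell by 0.42 on the log2 scale (SE 0.12; adjusted p 0.013). Without control replicate 2 the adjusted p was 0.078. The largest Sox6 gain, chr7:115866109-115866509, rose from 0.228, 0.858 and 0.568 CPM to 4.38, 1.19 and 1.73 CPM (log2 2.00 ± 0.45, SE). At chr7:115825287-115825687, 577 bp from another listed start, the values were 0.911, 1.25 and 1.28 CPM in control and 4.46, 1.03 and 2.39 CPM in knockdown. That gain of 1.16 overlapped control in replicate 2 and lost its call without knockdown replicate 1 (log2 0.59, adjusted p 0.25), without any control library or without knockdown replicate 3, and under library totals (adjusted p 0.074). Over the 4 neuronal genes, gains numbered 12 without control replicate 1, 9 without control replicate 2, 10 without control replicate 3, 12 without knockdown replicate 1 and 13 without knockdown replicate 3. Losses numbered 8 without control replicate 1.

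**Figure D5:**
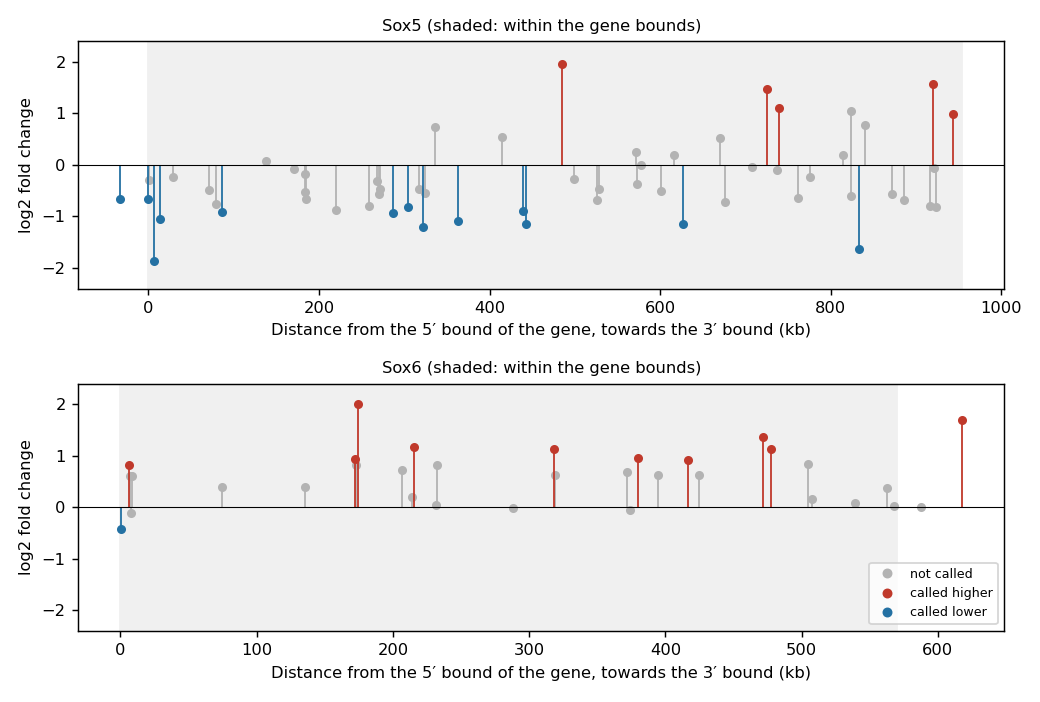
Log2 fold change (knockdown over control) of each tested region along Sox5 and Sox6 against distance from the 5′ bound in kb, with the gene bounds shaded, red for regions called higher and blue for regions called lower. All 5 Sox5 gains lay on the 3′ side of the midpoint, while the 10 Sox6 gains were spread along the gene.

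Called member regions had control levels close to those of called regions overall. Control levels of the 54 higher regions ranged from 0.250 to 39.4 CPM with a median of 2.28 CPM, and those of the 16 lower regions from 1.82 to 17.0 CPM with a median of 3.85 CPM. The medians over all called regions were 2.37 CPM for higher and 3.78 CPM for lower. At Sox5, the higher regions had a control median of 0.858 CPM and the lower regions 3.52 CPM. At Sox6, the 10 higher regions had a control median of 0.788 CPM. In all, 39 of the member regions were below 1 CPM in control.

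Of 10 other Sox genes, 9 had regions within 50 kb and 5 of these sums were called higher and 0 lower, beside the 37.3% called higher over all genes. Their median log2 fold change was 0.22. Sox14, a factor of midbrain inhibitory neurons, changed most, from 13.0, 18.5 and 14.4 CPM to 26.4, 24.1 and 18.5 CPM (log2 0.57 ± 0.14, SE; adjusted p 0.0011). Knockdown replicate 3 overlapped the controls. Of 22 genes for partners and regulators of Sox factors, 9 were called higher and 1 lower, with a median of 0.22. Among them Pou3f2, a POU factor that binds DNA beside Sox2, rose most, from 81.4, 83.1 and 86.8 CPM to 142, 100 and 141 CPM (log2 0.61 ± 0.09, SE; adjusted p 3.3e-07). All knockdown libraries exceeded all controls there, with replicate 2 the lowest of its group.

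At the limit of 50 kb, the farthest region of each member inside it lay 30025 to 49659 bp from the gene. That at 49659 bp, of Sox6, was not tested, and the others had log2 fold changes from -0.65 to 2.47 with a median of 0.53. The nearest region outside it lay 51994 to 77277 bp away, with log2 fold changes from -0.30 to 2.01 and a median of 1.18. Within 10 kb of the genes lay 129 regions, of which 33 were called higher and 13 lower, beside 15.4% and 12.7% of all regions tested. Regions inside a gene count as within 10 kb, so 60 of the 129 lay at Sox5 and 32 at Sox6. Of these, Sox5 had 5 higher and 12 lower, and Sox6 had 9 higher and 1 lower.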

How the data were processed

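Sorted VTA nuclei gave 6 ATAC-seq libraries, grouped by the genotype label, on 1 common set of 193148 regions, 94.6% of them 401 bp wide. Per the submitters' processing notes, the tools include Trimmomatic, BWA, Picard, MACS2, FastQC and SAMtools 1.9, and the build is mm10. How reads were counted and regions made, and whether reads were shifted for the transposase, was not given in the sources used here. Reads were tested as the count per region deposited by the authors, without normalization. From the deposited RPKM only the library totals were recovered. The deposited score entered no test.

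Counts were fitted with edgeR 4.0.16 in R 4.3.3 (quasi-likelihood test, TMM scaling, filter on low counts, Benjamini-Hochberg adjustment over all regions, threshold 0.05). The procedure was also run on counts simulated with a fixed dispersion. Those lack the differences between knockdown libraries seen here, so that run does not bear on the calls. Locus sums add the reads of all regions within 50 kb of each protein-coding gene and were fitted over all genes with the scaling of the regions. Neighbouring loci share regions. Markers were summed within 5 kb. Bounds came from RefSeq GRCm38.p6 without exons, so a region's place in exon, intron or UTR was not determined, and it need not act on the gene it is assigned to.

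Named regions are, per gene, the region over or within 1 kb of a listed start, the most accessible in control, and the called regions of largest rise and fall. A Sox10 bound region, the regions of smallest adjusted p of Sox5 and Sox10, and the most accessible called region of Sox9 were added after values were seen. Per other list, the called gene of largest change is named, and Slc6a3 as a defining marker. The members and lists were chosen with earlier results of these data known. Alternatives were DESeq2 1.42.0, no filter, scaling by library totals, reads in regions or loess curves (limma 3.58.1), grouping by title, windows of 10 kb, omission of regions at ends of other genes, and each library left out in turn.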

Additional observations from a re-analysis of the deposited data

How the results depend on the processing

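DESeq2 in place of edgeR gave 31 higher and 10 lower Sox regions, with 12 higher at the glial genes and 9 higher and 9 lower at the neuronal genes. Over all regions, DESeq2 called 20828 higher and 14819 lower, against 29579 and 24271 by edgeR. Scaling by library totals gave 25 higher and 32 lower in all, 7 and 1 at the progenitor genes, 11 and 2 at the glial genes, and 7 and 29 at the neuronal genes. Over all regions it called 13135 higher and 47189 lower. Grouping by title gave 0 higher and 0 lower in each class. Windows of 10 kb gave 33 higher in all, 7 at the progenitor genes, and 7 higher with 0 lower at the glial genes, since fewer regions enter. Leaving out each library in turn gave 19100 to 29969 higher and 14676 to 25007 lower over all regions. Among Sox regions it gave 28 to 59 higher and 8 to 16 lower. These were 6 to 14 higher at the progenitor genes, 10 to 21 higher and 0 to 1 lower at the glial genes, and 9 to 24 higher and 8 to 15 lower at the neuronal genes. No filter, loess scaling and omission of regions at ends of other genes kept each of these counts within 1.5 times.

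Signs turned for the Sox11 sum, at -0.20 with library totals, -0.054 with reads in regions and -0.080 with loess curves, none of them called. The Sox11 start region turned to -0.20, -0.043 and -0.23 under the same scalings and spanned -0.028 to 0.14 as libraries were left out, negative without control replicate 2. The uncalled Sox10 region at the Polr2f end turned to -0.055 with library totals and -0.024 with loess curves. Under grouping by title, signs turned for the regions of largest rise of Sox1 (-0.022), Sox8 (-1.20) and Sox10 (-0.90), for the Sox8 start region (-0.017), the Sox10 bound region (-0.16) and the Sox6 region near a listed start (-0.16). The cause was not tested. No paired analysis was possible because the groups share no replicate numbers in the labels. Depth limits the weakest regions: 39 member regions were below 1 CPM in control, and 3 reads equal 0.117 to 0.237 CPM.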

Other observations

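The remaining marker lists gave mixed values. Of 6 general neuron markers, 2 were called higher and 1 lower, and their sums overlapped, at 1497 to 1652 CPM in control and 1462 to 1683 CPM in knockdown. All 3 markers of GABAergic neurons were called higher, and their sum was 94.8 to 124 CPM in control and 144 to 171 CPM in knockdown. Of 5 microglial markers with regions, 0 were called higher and 2 lower, with sums of 59.2 to 68.0 CPM in control and 41.8 to 45.5 CPM in knockdown. C1qa, a complement gene of microglia, held 17.3, 14.4 and 15.6 CPM in control and 4.91, 5.78 and 4.12 CPM in knockdown, with replicate 2 not apart from the other knockdown libraries. Of 5 endothelial markers, 1 was called higher and 2 lower, with overlapping sums of 66.3 to 71.1 CPM in control and 62.0 to 68.5 CPM in knockdown, and Cldn5, a tight-junction gene, held 5.17 ± 0.633 CPM in control and 2.38 ± 0.766 CPM in knockdown (SD, n = 3 each). These calls are by edgeR over 5 kb sums of all genes, of which 36.0% were called higher and 9.56% lower.

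Among dopaminergic markers, 2 of 10 were called higher and 1 lower. The lower call was Th, singled out after its values were seen, with 341, 777 and 500 CPM in control and 442, 339 and 318 CPM in knockdown. Its control libraries spread over more than the difference between the groups, and knockdown replicate 1 lay within their range.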
